A study of Mus musculus with 19 samples.

Results

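The genes of fatty acid uptake and binding are 9 genes by which an adipocyte and the capillary beside it take up, activate and bind fatty acids: Lpl, Gpihbp1, Angptl4, Vldlr, Cd36, Slc27a1, Acsl1, Fabp4 and Fabp5. They were picked out by their symbols and are 9 of the 24237 genes read from the deposited table. All 9 passed the filter on low values, which kept 8336 genes.

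Epididymal white adipose tissue (eWAT) of male C57BL6/J mice was sequenced, and each library came from a single mouse. Per the study's methods, the mice were 9 to 10 weeks old when allocated to the groups, and a period of acclimatization on standard chow is also given. They were fed the diets for 17 weeks. The diets drew 10% (low-fat diet, LFD) or 60% (high-fat diet, HFD) of their energy from palm oil and held 0.21% (NormMg) or 0.03% (LowMg) magnesium oxide by weight. The groups were NormMg-LFD (n = 4, replicates 2 to 5), LowMg-LFD (n = 5), NormMg-HFD (n = 5) and LowMg-HFD (n = 5), and per the study's methods the sequenced mice were picked at random from larger groups.

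Lipids reach adipose tissue in triacylglycerol-rich lipoproteins. Lipoprotein lipase, made by adipocytes and carried to the capillary wall by an endothelial anchor protein, releases the fatty acids, which then cross the plasma membrane, are coupled to coenzyme A and are bound in the cytosol by small carrier proteins. In adipocytes many of these genes are known targets of the nuclear receptor PPARγ, and fasting and feeding shift the pathway largely through the inhibitor of the lipase.

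Values are FPKM, fragments scaled for transcript length and for mapped reads, so that levels of different genes can be compared. Differences are log2 fold changes of FPKM + 1 from limma over all 4 groups, with Benjamini-Hochberg adjusted p values computed across the 8336 tested genes and a threshold of 0.05. The libraries held 12986441 to 13027028 reads, of which 86.12% to 90.41% mapped. Read counts per gene were not analysed here, so the error of each value is the mouse-to-mouse spread. In a whole tissue, fewer cells of a type and less RNA per cell cannot be told apart. The study reports that LowMg-HFD mice were lighter, with less eWAT, than NormMg-HFD mice. In that comparison low Mg2+ and a lower body weight cannot be told apart. The tissue label was checked against 10 adipocyte markers, of which none was at 0 in every mouse of a group, with a summed FPKM of 5671 or more in each mouse. The library labelled NormMg-LFD replicate 3 stood apart, since its summed FPKM of 12 exocrine pancreas genes was 1730 against 12.35 to 52.3 in the other libraries. The methods place a pancreatic contamination in a left-out LowMg-HFD sample, but no LowMg-HFD library was above 44.6, so the values of the 9 genes in the 3 comparisons that use NormMg-LFD mice (fat at normal Mg2+, low Mg2+ on the LFD and the interaction) are also given without replicate 3. Calls of the gene lists that were lost without it are named in every comparison, since all comparisons share 1 fit. NormMg-LFD replicate 4, with the lowest mapped share (86.12%), had the lowest value of its group in all 9 genes.

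The positions are those of GENCODE M21 on GRCm38. Lpl (ENSMUSG00000015568.16) lies on chromosome 8 from 68880491 to 68907448, Gpihbp1 (ENSMUSG00000022579.10) on chromosome 15 from 75596628 to 75599481, and Angptl4 (ENSMUSG00000002289.15) on chromosome 17 from 33773750 to 33781830. Vldlr (ENSMUSG00000024924.14) lies on chromosome 19 from 27216484 to 27254231, Cd36 (ENSMUSG00000002944.15) on chromosome 5 from 17781690 to 17888801, and Slc27a1 (ENSMUSG00000031808.7) on chromosome 8 from 71568882 to 71587302. Acsl1 (ENSMUSG00000018796.13) lies on chromosome 8 from 46471037 to 46536051 and shares exon sequence with a gene on the opposite strand, Gm45244. Fabp4 (ENSMUSG00000062515.3) and Fabp5 (ENSMUSG00000027533.10) both lie on chromosome 3, from 10204088 to 10208576 and from 10012548 to 10016607. RSEM divides reads that map to several places, and the annotation names a processed copy of Fabp5, Fabp5l2. The deposited values hold no gene under that symbol, so a division of reads between them could not be seen.

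RefSeq promoter windows on GRCm38.p6 were held for 4 of the 9 genes, with 8 windows in all, and the 250 bases before the start were searched on both strands for the half-site AGGTCA of nuclear receptors, for its direct repeat with a single base between (DR1), the kind of element that PPARγ binds, and for the TATA box letters TATAAA. Over all 32851 windows, the half-site was in 14.0%, the direct repeat, which holds it, in 0.0335% and TATAAA in 12.4%. The first windows of Cd36 and Vldlr are shown because these are the genes with a window that were higher on the HFD. The Cd36 window (chr5:17835897-17836146, minus strand, inside the gene's span and outside its exons) held the only match of the 8 windows, a half-site on the reverse strand at bases -228 to -223 from the start, shown in capitals. The Vldlr window (chr19:27216234-27216483, plus strand, just before the gene) held none of the 3 letter strings. They read, 5′ to 3′:

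Cd36: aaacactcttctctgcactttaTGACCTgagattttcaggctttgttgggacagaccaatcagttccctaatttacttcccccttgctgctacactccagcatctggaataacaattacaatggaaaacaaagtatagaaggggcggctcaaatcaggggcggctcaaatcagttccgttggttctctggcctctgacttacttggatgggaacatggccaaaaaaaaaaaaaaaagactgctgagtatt

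Vldlr: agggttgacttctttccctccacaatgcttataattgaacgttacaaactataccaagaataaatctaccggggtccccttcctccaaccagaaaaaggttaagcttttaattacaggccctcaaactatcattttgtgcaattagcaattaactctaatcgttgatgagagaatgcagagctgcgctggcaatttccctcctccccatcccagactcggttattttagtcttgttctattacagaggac

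A match or its absence describes these letters alone.

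Together the 9 genes were abundant. By mean FPKM over the 19 mice, Fabp4 ranked 4 of all genes (9172), Lpl 17 (2505) and Cd36 22 (2154). Acsl1 followed at 520, Angptl4 at 348, Fabp5 at 206, Slc27a1 at 205, Gpihbp1 at 122 and Vldlr at 33.4, which ranked 2579. Fabp4 was above Lpl in 19 of 19 mice and Cd36 above Acsl1 in 19 of 19. Lpl was above Cd36 in 16 of 19 mice, with median ratios of 1.38 and 1.39 on the NormMg-LFD and LowMg-LFD but 1.06 and 1.03 on the NormMg-HFD and LowMg-HFD. Fabp5 and Slc27a1 had no steady order, Fabp5 being higher in 9 of 19 mice. In NormMg-HFD mice Fabp5 was above Slc27a1 in 5 of 5, whereas in NormMg-LFD mice Slc27a1 was above Fabp5 in 4 of 4. The 9 genes made up 2.59% ± 0.38 (SD, n = 4) of all FPKM in NormMg-LFD, 3.03% ± 0.30 (SD, n = 5) in LowMg-LFD, 2.80% ± 0.20 (SD, n = 5) in NormMg-HFD and 3.05% ± 0.40 (SD, n = 5) in LowMg-HFD mice, ranges that overlap.

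**Figure D1:**
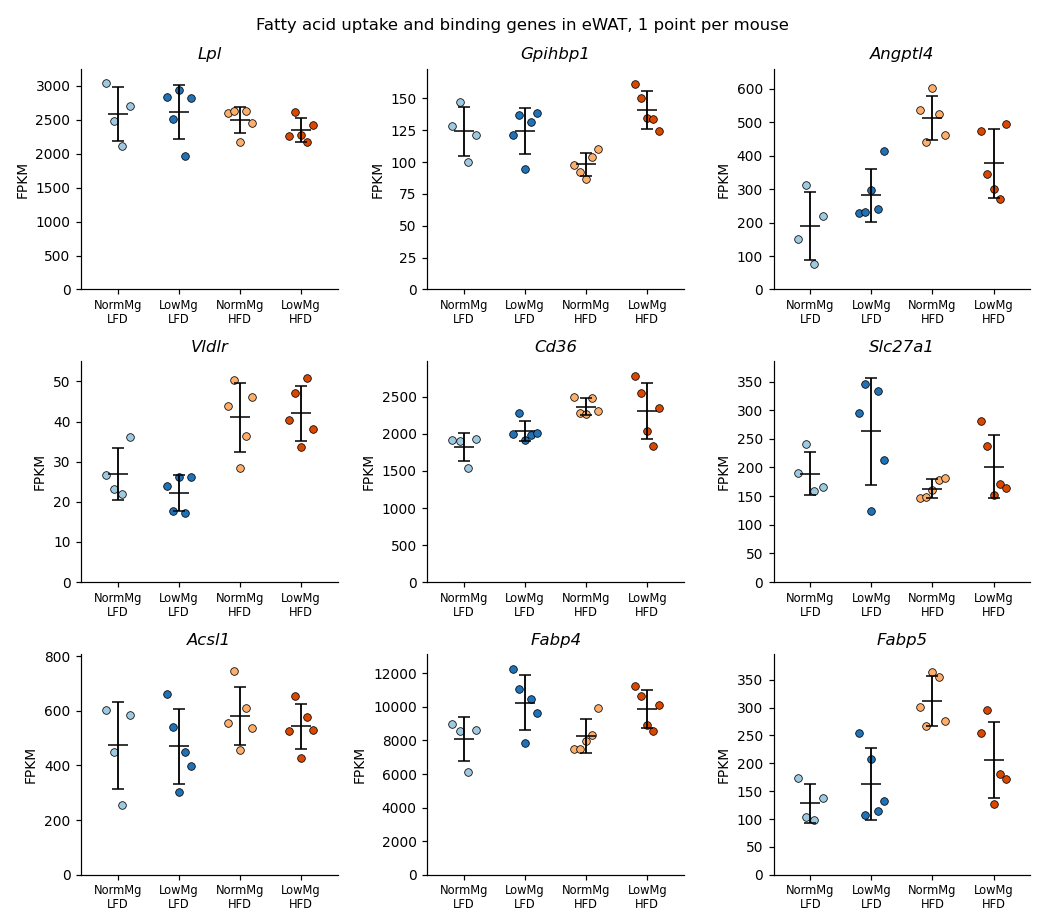
FPKM (y axis, from 0, 1 panel per gene) of the 9 genes in eWAT by diet group (x axis). Each point is 1 mouse, and bars give the mean ± SD (n = 4 for NormMg-LFD, 5 for the others). Angptl4, Fabp5 and Cd36 are higher in every NormMg-HFD than in every NormMg-LFD mouse, and Gpihbp1 is higher in every LowMg-HFD than in every NormMg-HFD mouse.

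The comparison of HFD with LFD at normal Mg2+ showed the most change in these genes. Angptl4, Fabp5, Cd36 and Vldlr rose and Gpihbp1 fell, 5 of 9 genes, while 37.4% of all genes tested passed (24.6% higher and 12.8% lower). The groups did not overlap in 3 of the 9 genes and in 32.1% of all genes tested. The median log2 fold change was 0.35 over the 9 genes and 0.07 over all. Without NormMg-LFD replicate 3 the rises of Angptl4, Fabp5 and Cd36 were called, 3 of 9 genes beside 31.4% of all genes then tested, and Vldlr and Gpihbp1 were not. Of all genes called, 65.8% were higher on the HFD with values as deposited, but 50.1% after median centring and 46.9% after quantile normalization, which moved the median over all genes by -0.10 and -0.12. At an unadjusted p under 0.05 there were 5 of the 9 genes and 45.8% of all.

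Lpl, the enzyme that cleaves the triacylglycerols, passed the threshold in none of the 5 comparisons. It stood at 3042, 2476, 2106 and 2704 FPKM in NormMg-LFD mice and at 2590, 2625, 2175, 2629 and 2448 in NormMg-HFD mice. It stood at 2837, 2506, 2937, 1970 and 2816 in LowMg-LFD mice and at 2257, 2616, 2266, 2168 and 2420 in LowMg-HFD mice. All 4 groups overlapped. The log2 fold change by fat was -0.04 at normal Mg2+ (95% interval -0.30 to 0.22, adjusted p = 0.823, limma), or -0.06 without NormMg-LFD replicate 3, and -0.14 at low Mg2+ (-0.39 to 0.10, adjusted p = 0.44). By low Mg2+ it was -0.09 on the HFD (-0.33 to 0.16) and 0.02 on the LFD (-0.24 to 0.28).

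Angptl4 encodes a secreted inhibitor that unfolds the lipase. NormMg-LFD mice had 150.7, 312.3, 75.0 and 220.4 FPKM and NormMg-HFD mice 535.3, 439.5, 601.9, 524.9 and 459.8. Every NormMg-HFD mouse was above every NormMg-LFD mouse, by a ratio of means of 2.70. Fat raised it by a log2 fold change of 1.60 (SE 0.30, adjusted p = 0.000293, limma), and by 1.90 without NormMg-LFD replicate 3 (adjusted p = 6.15e-05). LowMg-LFD mice had 227.6, 230.4, 295.9, 239.7 and 413.5 FPKM and LowMg-HFD mice 472.7, 344.5, 299.7, 270.4 and 495.5. These groups overlapped, and at low Mg2+ the change by fat was 0.42 (95% interval -0.17 to 1.00, adjusted p = 0.34). The difference between the changes by fat at low and at normal Mg2+ was -1.18 (SE 0.41, adjusted p = 0.108), which did not pass the threshold, nor did it without NormMg-LFD replicate 3 (-1.48, adjusted p = 0.0894).

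Gpihbp1 is made by capillary endothelial cells and holds the lipase on the vessel wall. NormMg-HFD mice had 97.5, 91.9, 87.1, 103.9 and 110.6 FPKM and LowMg-HFD mice 161.5, 150.5, 134.3, 134.1 and 124.2. All LowMg-HFD mice lay above all NormMg-HFD mice, by a ratio of means of 1.44. The NormMg-LFD mice had 128.2, 147.0, 99.96 and 121.2 and the LowMg-LFD mice 121.5, 137, 94.4, 131.6 and 138.2, so that the 2 LFD groups overlapped and the NormMg-HFD group had the lowest mean of the 4.

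By low Mg2+ on the HFD, Gpihbp1 rose by a log2 fold change of 0.52 (SE 0.12, adjusted p = 0.0053, limma), and it was called in 28 of 28 alternatives, with values from 0.47 to 0.62. It was the 1 gene of the 9 that passed in this comparison, in which 18.5% of all genes tested passed (5.58% higher and 12.9% lower), so the share of these genes was no larger than the background. Groups without overlap were found in 1 of the 9 genes and in 12.8% of all, and an unadjusted p under 0.05 in 2 of the 9 and in 32.4% of all. Of all calls, 30.2% were higher in LowMg-HFD mice as deposited, 43.3% after median centring and 47.2% after quantile normalization, and Gpihbp1 was higher under each of these scalings. On the LFD the log2 fold change of Gpihbp1 by low Mg2+ was 0.01 (95% interval -0.25 to 0.26, adjusted p = 0.994). The difference between the effects on the 2 fat levels was 0.51 (SE 0.17, adjusted p = 0.0974) and did not pass, except with quantile normalization (0.60, adjusted p = 0.0488). Without NormMg-LFD replicate 3 it was 0.43 (adjusted p = 0.201).

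At normal Mg2+ Gpihbp1 was lower on the HFD, with a log2 fold change of -0.33 (SE 0.12, adjusted p = 0.0431, limma), with overlapping groups. This call was near the threshold and was lost in 11 of 28 alternatives, among them the replicate block (-0.34, adjusted p = 0.0573) and the fit without NormMg-LFD replicate 3 (-0.24, adjusted p = 0.166). With quantile normalization it was larger (-0.49, adjusted p = 0.00341). At low Mg2+ the log2 fold change by fat was 0.18 (95% interval -0.06 to 0.43, adjusted p = 0.306).

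Endothelial markers were read beside Gpihbp1. The summed FPKM of 10 such markers was 423 to 538 in NormMg-HFD and 505 to 620 in LowMg-HFD mice, and 473 to 543 and 451 to 536 in NormMg-LFD and LowMg-LFD mice. Robo4 (log2 fold change 0.48), Egfl7 (0.41) and Kdr (0.54), 3 of the 10, rose by low Mg2+ on the HFD, where 5.58% of all genes tested were called higher. The same 3 fell by fat at normal Mg2+, where 12.8% of all genes were called lower, but without NormMg-LFD replicate 3 Robo4 was not called there (-0.24, adjusted p = 0.107, limma). By fat at low Mg2+, where Gpihbp1 was not called and 12.4% of all genes were called higher, Cdh5 (0.29) and Robo4 (0.30) rose. In the interaction 1 of the 10, Robo4, was called (0.60, adjusted p = 0.0464), a call lost without NormMg-LFD replicate 3 (0.54, adjusted p = 0.0959) and with the replicate block (0.57, adjusted p = 0.0844). None of the 10 was at 0 in every mouse of a group. As a percentage of the endothelial sum, a ratio chosen after the data were seen, Gpihbp1 was 17.1 to 24.8 in NormMg-HFD and 20.1 to 29.8 in LowMg-HFD mice, which overlap. The part of the endothelial markers in the Gpihbp1 difference was not tested.

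Vldlr encodes a receptor that binds triacylglycerol-rich lipoproteins at the cell surface. It had 26.7, 23.2, 21.8 and 36.1 FPKM in NormMg-LFD, and 43.8, 50.4, 28.5, 36.4 and 46.2 in NormMg-HFD mice. It had 24.1, 17.7, 26.1, 17.3 and 26.2 in LowMg-LFD, and 40.5, 47.1, 33.7, 50.8 and 38.3 in LowMg-HFD mice. The groups at low Mg2+ did not overlap, while at normal Mg2+ 1 LFD mouse reached into the HFD range.

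In the comparison of HFD with LFD at low Mg2+, Vldlr was the 1 of the 9 genes that passed, beside 15.9% of all genes tested (12.4% higher and 3.51% lower), with a log2 fold change of 0.90 (SE 0.17, adjusted p = 0.0022, limma) and a ratio of means of 1.89. The groups did not overlap in 1 of the 9 genes and in 9.3% of all, and the unadjusted p was under 0.05 in 1 of the 9 and in 29.6% of all. The median log2 fold change was 0.18 over the 9 genes and 0.10 over all genes. Of all calls at low Mg2+, 78.0% were higher as deposited, 52.8% with median centring, which moved the median over all genes by -0.11, and 50.9% with quantile normalization, which moved it by -0.12. The Vldlr call at low Mg2+ held in 28 of 28 alternatives (0.79 to 0.97). At normal Mg2+ Vldlr rose by 0.59 (SE 0.18, adjusted p = 0.0147), which was lost by median centring (0.49, adjusted p = 0.0561), by quantile normalization (0.48, adjusted p = 0.0615), and without NormMg-LFD replicate 3 (0.53, adjusted p = 0.0508) or 4 (0.50, adjusted p = 0.0517). The change by fat at low minus that at normal Mg2+ was 0.31 (95% interval -0.21 to 0.83, adjusted p = 0.519). Low Mg2+ changed Vldlr by 0.05 on the HFD (-0.31 to 0.40) and -0.26 on the LFD (-0.64 to 0.12), neither of which passed.

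Of the genes that take up and activate fatty acids, Cd36, the membrane translocase and scavenger receptor, was higher on the HFD at normal Mg2+. NormMg-LFD mice had 1920, 1910, 1540 and 1937 FPKM and NormMg-HFD mice 2495, 2277, 2264, 2487 and 2312. No HFD mouse reached down to the LFD range, and the ratio of means was 1.30. On the log2 scale Cd36 rose by 0.38 (SE 0.11, adjusted p = 0.0122, limma), and 0.40 (adjusted p = 0.0211) without NormMg-LFD replicate 3. It did not pass after median centring (0.28, adjusted p = 0.102) or when no filter on low values was used (adjusted p = 0.104). At low Mg2+, where LowMg-LFD mice had 2000, 2279, 1924, 1986 and 2020 FPKM and LowMg-HFD mice 2779, 2558, 2036, 1842 and 2353, the groups overlapped. There the change was 0.17 (95% interval -0.06 to 0.39, adjusted p = 0.315). The change by low Mg2+ on the HFD was -0.05 (-0.27 to 0.17, adjusted p = 0.797), and its sign turned with median centring (0.01).

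Slc27a1 encodes the fatty acid transport protein FATP1, and Acsl1 the main long-chain acyl-CoA synthetase of adipocytes. Slc27a1 ranged from 158.2 to 240.8 FPKM in NormMg-LFD, from 124.8 to 345.5 in LowMg-LFD, from 147.4 to 181.8 in NormMg-HFD and from 152.5 to 281.8 in LowMg-HFD mice. It was widest in LowMg-LFD mice, where the SD was 92.8 FPKM around a mean of 262.8 (n = 5). Its log2 fold changes were 0.27 and 0.40 by low Mg2+ on the HFD and LFD, and -0.19 and -0.33 by fat at normal and low Mg2+, and none passed the threshold. Without NormMg-LFD replicate 3, the highest mouse of its group at 240.8, the change by fat at normal Mg2+ was -0.07. The difference by fat at low Mg2+ passed without LowMg-LFD replicate 3, the lowest mouse of its group (-0.58, adjusted p = 0.037).

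Acsl1 ranged from 255.8 to 602.2 FPKM in NormMg-LFD, from 302.3 to 661.2 in LowMg-LFD, from 457.5 to 745.8 in NormMg-HFD and from 428.8 to 656.0 in LowMg-HFD mice. All groups overlapped. Its log2 fold change by fat was 0.35 (95% interval -0.14 to 0.84, adjusted p = 0.25, limma) at normal Mg2+, which became 0.36 without NormMg-LFD replicate 3 and 0.083 without replicate 4, and 0.24 (-0.22 to 0.71, adjusted p = 0.494) at low Mg2+, which became 0.097 without LowMg-LFD replicate 3. By low Mg2+ it was -0.09 on the HFD (-0.55 to 0.37) and 0.02 on the LFD (-0.47 to 0.51). The lowest mice of the LFD groups were NormMg-LFD replicate 4, at 255.8, and LowMg-LFD replicate 3, at 302.3.

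The fatty acid binding proteins differed from each other. Fabp4, the abundant cytosolic carrier of adipocytes, was at 8970, 8541, 6132 and 8637 FPKM in NormMg-LFD and at 7489, 7521, 7953, 8355 and 9948 in NormMg-HFD mice. It was at 12236, 11050, 7850, 10501 and 9619 in LowMg-LFD and at 11226, 10676, 8921, 8536 and 10101 in LowMg-HFD mice. The groups overlapped between the fat levels, with log2 fold changes of 0.04 at normal Mg2+ (95% interval -0.27 to 0.35, or 0.07 without NormMg-LFD replicate 3) and -0.04 at low Mg2+ (-0.33 to 0.25). With quantile normalization these became 0.54 (adjusted p = 0.000163) and 0.50 (adjusted p = 0.00169), and the cause was not tested. By low Mg2+ the changes were 0.26 on the HFD (-0.03 to 0.55, adjusted p = 0.204) and 0.35 on the LFD (0.04 to 0.65, adjusted p = 0.753), which became -0.020 and 0.012 with quantile normalization.

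Fabp5, a relative of Fabp4 that macrophages also make, was at 174.0, 104.5, 98.4 and 136.9 FPKM in NormMg-LFD and at 300.7, 266.9, 364.3, 354.2 and 275.1 in NormMg-HFD mice. The groups did not overlap, and the ratio of means was 2.43. The log2 fold change by fat was 1.30 (SE 0.26, adjusted p = 0.000578, limma), and 1.22 (adjusted p = 0.00335) without NormMg-LFD replicate 3. LowMg-LFD mice had 253.7, 107.6, 207.9, 114.6 and 133.1 FPKM and LowMg-HFD mice 253.7, 295.8, 126.2, 180.9 and 171.9, which overlapped, and the change at low Mg2+ was 0.35 (95% interval -0.16 to 0.86, adjusted p = 0.36). The difference of the 2 changes was -0.95 (SE 0.36, adjusted p = 0.139) and did not pass, nor did it without NormMg-LFD replicate 3 (-0.86, adjusted p = 0.243).

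Between the HFD groups Fabp5 was at 0.659 of its NormMg-HFD mean in LowMg-HFD mice, with 1 LowMg-HFD mouse inside the NormMg-HFD range. The log2 fold change of -0.65 (95% interval -1.16 to -0.14) had an unadjusted p of 0.015 and an adjusted p of 0.0692 in limma, short of the threshold. It passed in 3 of 28 alternatives, without LowMg-HFD replicate 2 (-0.80, adjusted p = 0.0281), without LowMg-LFD replicate 1 (-0.65, adjusted p = 0.0442) and in a fit of the compared groups alone (-0.65, adjusted p = 0.0443). Angptl4 changed by -0.48 in this comparison (-1.06 to 0.11, adjusted p = 0.247).

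**Figure D2:**
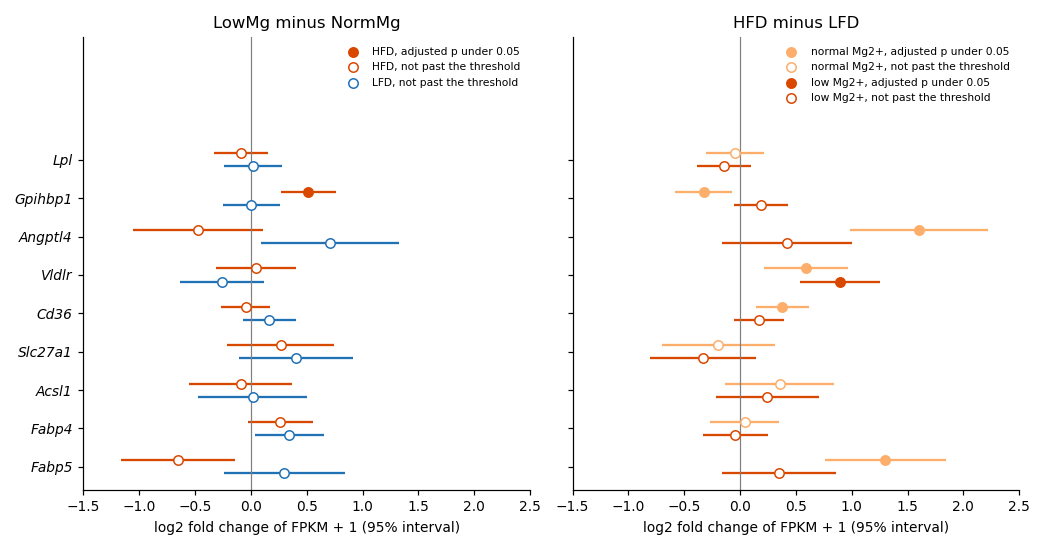
Log2 fold change of FPKM + 1 (x axis, points, with 95% intervals as lines) for each of the 9 genes (y axis), left for LowMg minus NormMg on the HFD and the LFD, right for HFD minus LFD at normal and low Mg2+. Filled points passed an adjusted p of 0.05 in limma: Gpihbp1 on the left, and on the right Angptl4, Fabp5, Cd36, Vldlr and Gpihbp1 at normal Mg2+ and Vldlr at low Mg2+.

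Macrophage markers were read beside Fabp5 and Angptl4. The summed FPKM of 12 macrophage markers was 577 to 709 in NormMg-LFD, 450 to 836 in LowMg-LFD, 3065 to 4924 in NormMg-HFD and 799 to 2753 in LowMg-HFD mice, and none of the 12 was at 0 in every mouse of a group. At normal Mg2+ 11 of the 12 rose by fat and 1 fell, by low Mg2+ on the HFD 11 fell, and by fat at low Mg2+ 9 rose, while the shares of all genes tested called in those directions were 24.6%, 12.8%, 12.9% and 12.4%. The 1 that fell, Cd163, was not called without NormMg-LFD replicate 3 (-0.54, adjusted p = 0.096, limma), and the other 11 were. By fat at low Mg2+ 8 were called without that mouse, all but Spp1 (1.68, adjusted p = 0.0569). In the interaction Adgre1 was called (-1.72, adjusted p = 0.0447), but not without that mouse (-1.66, adjusted p = 0.0901). Fabp5 and Angptl4 were called in the first of these comparisons and in neither of the others. Among NormMg-HFD mice, replicate 3 had the highest sum, 4924, and the highest Fabp5 and Angptl4, 364.3 and 601.9 FPKM. Replicate 2 of that group had the lowest sum, 3065, and the lowest Fabp5 and Angptl4, 266.9 and 439.5 FPKM. Among LowMg-HFD mice, replicates 1 and 2 had the highest sums, 2753 and 2324, and also the highest Fabp5, 253.7 and 295.8 FPKM. Their Angptl4 was 472.7 and 344.5, while replicate 5, with a sum of 1170, had the highest Angptl4, 495.5. Within the LFD, the mouse with the highest Fabp5 (253.7, LowMg-LFD replicate 1) had the lowest macrophage sum of all, 450. The part of the macrophage markers in the Fabp5 and Angptl4 differences was not tested.

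**Figure D3:**
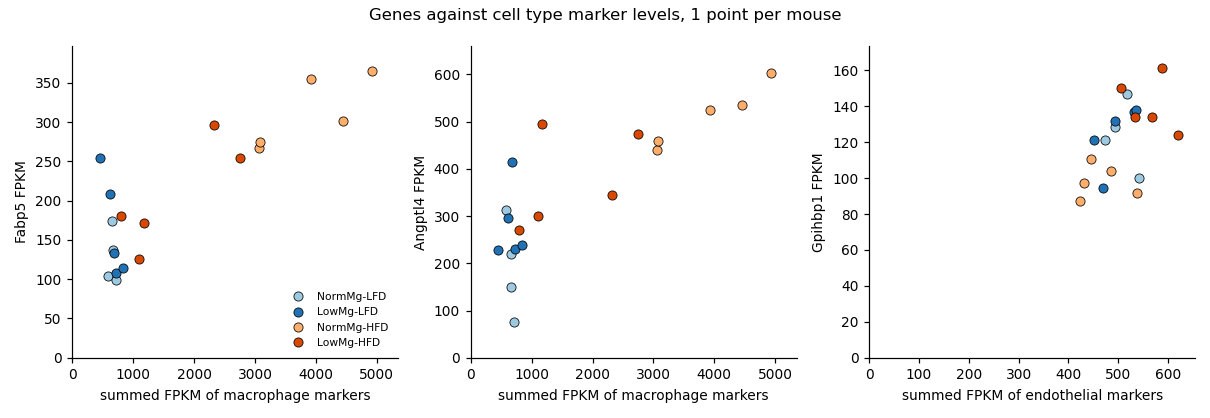
FPKM of Fabp5 and Angptl4 (y axes) against the summed FPKM of 12 macrophage markers (x axes), and of Gpihbp1 against that of 10 endothelial markers, with 1 point per mouse coloured by diet group. The 5 NormMg-HFD mice lie at macrophage sums of 3065 to 4924 with Fabp5 at 266.9 FPKM or more, and the LowMg-HFD mice spread from 799 to 2753.

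Adipocyte markers moved as well. The summed FPKM of 10 was 12750 to 17686 in NormMg-LFD, 12836 to 20162 in LowMg-LFD, 5671 to 8665 in NormMg-HFD and 9048 to 13642 in LowMg-HFD mice. Cfd weighs heavily in this sum. Its mean was 5724 FPKM in NormMg-LFD, 6732 in LowMg-LFD, 412 in NormMg-HFD and 1925 in LowMg-HFD mice. Of the 9 tested, 7 fell and 1, Lep, rose by fat at normal Mg2+, 7 rose by low Mg2+ on the HFD, and by fat at low Mg2+ 3 fell (Cfd, Retn and Pnpla2) and Lep rose. Without NormMg-LFD replicate 3 the same 8 were called by fat at normal Mg2+. Of all genes tested, 12.8% were called lower and 24.6% higher by fat at normal Mg2+, 5.58% higher by low Mg2+ on the HFD, and 3.51% lower and 12.4% higher by fat at low Mg2+. Beside these, the log2 fold changes by fat at normal Mg2+ were -0.04 for Lpl, 0.04 for Fabp4 and 0.38 for Cd36, which adipocytes also make. The part of the adipocyte markers in these values was not tested. Summed lymphocyte, mesothelial and muscle markers reached at most 28.95, 99.2 and 28.8 FPKM in any mouse. Mesothelial sums were 32.75 to 99.2 in NormMg-LFD and 9.43 to 21.49 in NormMg-HFD mice, without overlap. Krt19, the 1 mesothelial marker tested, fell there (-1.86, adjusted p = 0.00278, limma). Muscle sums were 12.62 to 17.46 in NormMg-HFD and 18.55 to 28.79 in LowMg-HFD mice, also without overlap. The part of these markers in the values of the 9 genes was not tested.

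In mice on the LFD, low Mg2+ gave no call in the 9 genes, nor in any of the 8336 genes tested (0% called, with 547 genes or 6.56% at an unadjusted p under 0.05, and 1 gene called when limma was run with no filter). Of the 9 genes, 2 had an unadjusted p under 0.05, Angptl4 (0.71, 95% interval 0.09 to 1.33, adjusted p = 0.753) and Fabp4, 8 of 9 had a value above 0, and no gene had groups without overlap, against 1.79% of all genes. The median was 0.16 over the 9 genes and -0.06 over all. These values rested in part on single NormMg-LFD mice. Without replicate 3 the change was 1.01 for Angptl4, 0.38 for Fabp4, 0.53 for Slc27a1, 0.21 for Fabp5, 0.19 for Cd36, 0.09 for Gpihbp1, 0.02 for Acsl1, -0.00032 for Lpl and -0.32 for Vldlr, so that 7 of 9 were above 0. Without replicate 4, the lowest mouse in all 9 genes, 5 of 9 were above 0, with Angptl4 at 0.33 and Fabp4 at 0.22, while Lpl (-0.08), Gpihbp1 (-0.09) and Acsl1 (-0.25) turned negative. None of the 9 was called with either mouse left out.

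The interaction term, low Mg2+ on the HFD minus low Mg2+ on the LFD, passed in none of the 9 genes and in 1.25% of all genes tested, 104 genes. The unadjusted p was under 0.05 for 3 of the 9, Gpihbp1, Angptl4 and Fabp5, and for 20.4% of all genes. Without NormMg-LFD replicate 3 limma called 0 of the 8370 genes then tested, the 9 among them, and the values not yet given were -0.24 for Cd36, -0.09 for Lpl, -0.12 for Fabp4, -0.26 for Slc27a1, -0.11 for Acsl1 and 0.37 for Vldlr. The comparisons by fat and by Mg2+ share groups of mice, so that a high or low group moves more than 1 of them.

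Ratios of FPKM within a mouse do not change with a factor common to all genes of that mouse. They were not tested. The NormMg-LFD values hold replicate 3, which had the highest ratio of its group for Angptl4 to Lpl (12.6%) and for Gpihbp1 to Lpl (5.94%), and the lowest for Fabp5 to Fabp4 (1.22%). Angptl4 per Lpl, inhibitor to enzyme, was 7.32% ± 4.02 (SD, n = 4) in NormMg-LFD, 10.8% ± 2.63 (SD, n = 5) in LowMg-LFD, 20.8% ± 4.14 (SD, n = 5) in NormMg-HFD and 16.1% ± 4.26 (SD, n = 5) in LowMg-HFD mice. Every NormMg-HFD mouse (16.7% or more) was above every LFD mouse (14.7% or less). Gpihbp1 per Lpl, anchor to enzyme, was 3.50% to 4.52% in NormMg-HFD and 5.13% to 7.16% in LowMg-HFD mice, without overlap, and 3.21% to 6.68% over the LFD mice.

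Fabp5 per Fabp4 was 1.59% ± 0.29 (SD, n = 4) in NormMg-LFD, 1.63% ± 0.71 (SD, n = 5) in LowMg-LFD, 3.83% ± 0.70 (SD, n = 5) in NormMg-HFD and 2.05% ± 0.52 (SD, n = 5) in the LowMg-HFD group. At 2.77% the lowest NormMg-HFD mouse met the highest LowMg-HFD mouse. Cd36 per Fabp4 was 23.2% to 33.3% in NormMg-HFD and 21.6% to 24.8% in LowMg-HFD mice, which overlap.

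**Figure D4:**
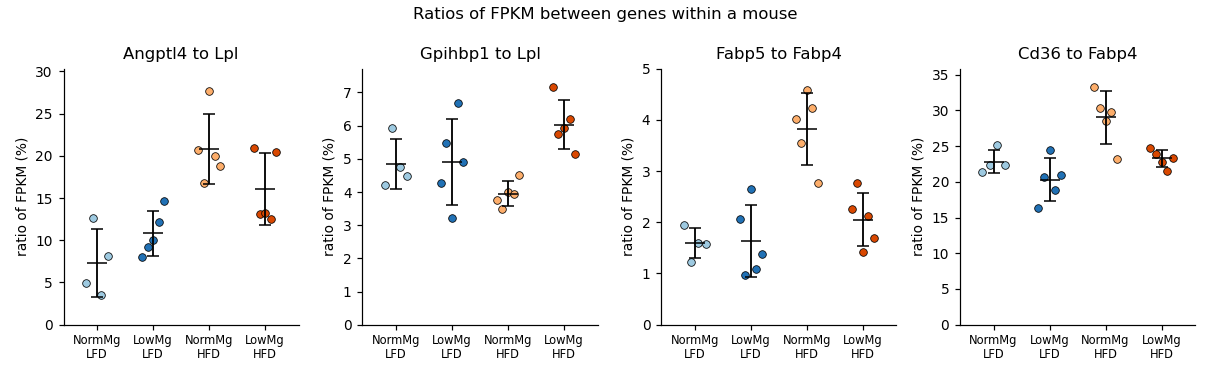
Ratio of FPKM of 2 genes within a mouse, in percent (y axis, from 0), by diet group (x axis), for Angptl4 to Lpl, Gpihbp1 to Lpl, Fabp5 to Fabp4 and Cd36 to Fabp4. Points are mice and bars the mean ± SD (n = 4 for NormMg-LFD, 5 for the others). Gpihbp1 to Lpl is 3.50% to 4.52% in NormMg-HFD mice and 5.13% to 7.16% in LowMg-HFD mice.

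Related genes were read from lists in the same fit, beside all genes tested, of which 24.6% rose and 12.8% fell by fat at normal Mg2+, 5.58% rose and 12.9% fell by low Mg2+ on the HFD, and 12.4% rose and 3.51% fell by fat at low Mg2+. Of 17 partners of the lipase, such as apolipoproteins, proprotein convertases and remnant receptors, 11 were tested. By fat at normal Mg2+ 2 rose and 4 fell, among them Sdc1, a heparan sulphate proteoglycan, which rose by 1.62, and the apolipoproteins Apoc1 (-1.08) and Apoe (-1.03) and the sorting receptor Sort1 (-0.57), which fell. By low Mg2+ on the HFD 2 rose and 2 fell, with Sdc1 (-1.09) and the remnant receptor Lrp1 (-0.57) lower and Sort1 (0.31) and Apoc1 (0.46) higher. By fat at low Mg2+ 2 rose and 3 fell, among them Sdc1 (0.94), Sel1l (0.34), Apoc1 (-1.04) and Sort1 (-0.29). The call of Apoc1 by low Mg2+ on the HFD was lost without NormMg-LFD replicate 3 (adjusted p = 0.0537, limma), which left 1 higher and 2 lower. That of Apoe by fat at low Mg2+ was lost too (-0.45, adjusted p = 0.0584), which left 2 higher and 2 lower.

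Of 13 other transport and activation genes, 6 were tested. By fat at normal Mg2+ the acyl-CoA synthetases Acsl5 (0.63) and Acsl4 (0.56) rose and Cav1, which encodes caveolin-1, fell (-0.38). By low Mg2+ on the HFD Cav1 rose (0.35) and Acsl4 fell (-0.40), and by fat at low Mg2+ Acsl5 rose (0.30). Neither the fall of Acsl4 (adjusted p = 0.0546, limma) nor this rise of Acsl5 (adjusted p = 0.055) was called without NormMg-LFD replicate 3. Of 12 other binding genes, 6 were tested. Acbd3 (0.45) and Acbd4 (0.43), acyl-CoA binding domain genes, rose and Scp2, which encodes sterol carrier protein 2, fell (-0.49) by fat at normal Mg2+. Scp2 fell by fat at low Mg2+ too (-0.47), and Acbd3 fell by low Mg2+ on the HFD (-0.31).

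Of 16 transcription factors known to act on such genes, 12 were tested, and 7 fell by fat at normal Mg2+ with 0 higher. Among them were Klf15 (-1.38), Ebf1 (-0.85), Rxra (-0.46) and Cebpa (-0.65). Pparg, the gene of PPARγ, named after its value was seen, was another (-0.66). The median log2 fold change over the 12 was -0.55, against 0.07 over all genes. Without NormMg-LFD replicate 3, 6 of the 7 were called, all but Tcf15 (-0.56, adjusted p = 0.0736, limma), and the calls of the other 3 lists by fat at normal Mg2+ were the same genes. By low Mg2+ on the HFD Rxra (0.35), Ebf1 (0.51) and Klf15 (0.55) rose, and by fat at low Mg2+ Klf15 (-0.64) and Ebf2 (-0.69) fell. None of these 4 lists had a call by low Mg2+ on the LFD or in the interaction, with or without that mouse.

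Likeness between genes was described by the Pearson correlation of deviations from the diet group means over the 19 mice, which share depth and quality of each library. The closest genes were Acadl (r = 0.90) and Dhrs7b (0.84) for Acsl1, Gyg (0.89), Gpd1 (0.84) and G6pdx (0.84) for Fabp5, and Fam213a (0.88), Eci1 (0.87) and 1600014C10Rik (0.85) for Fabp4. For Cd36 they were Abcg1 (0.89), Kctd12b (0.87) and Tmcc3 (0.87), and for Lpl Ptgr2 (0.87), Mmd (0.86) and Tmem182 (0.86). Gpihbp1 was closest to Slc27a1 (0.79), another of the 9, and to Rbp7 (0.79) and Car4 (0.78). Angptl4 was closest to Mpv17 (0.79), mt-Atp6 (0.76) and Slc8b1 (0.76), and Slc27a1 to Rasa3 (0.84), Commd5 (0.83) and Arxes2 (0.83). For Vldlr the closest 2 with a symbol were Gm47364 (0.89) and Gm42669 (0.78).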

How the data were processed

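RNA of eWAT from 19 mice was sequenced by the authors and mapped to GRCm38/mm10. Per the study's methods, 1 NormMg-LFD sample failed quality control. The authors deposited FPKM values of 24238 genes from RSEM v1.2.31, with the counts of reads and the percent mapped per mouse. Of these genes 24237 were used, since 1 has a cell that is not a number, and 26 symbols turned into dates by a spreadsheet were restored from gene identifiers. FPKM are not counts, so a count test was not used.

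A pseudocount of 1 was added and log2 taken. A gene was tested where a group had a mean FPKM above 8 and 4 or more mice above 8. Linear models with an intensity trend were fitted over the 4 groups (limma 3.58.1, R 4.3.3) for 5 contrasts. P values are moderated, two-sided and adjusted over all genes tested. The script was tested on simulated data.

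All 9 genes were named, with up to 4 genes per related list and contrast that passed, from the smallest adjusted p, and the 3 genes most alike, of which 1 is not reported here. The genes and lists were chosen with earlier results of these data known. Markers of adipocytes, endothelium, macrophages, lymphocytes, mesothelium, muscle and pancreas were read as summed FPKM. Alternatives were a pseudocount of 0.1, a filter of 1 or none, median centring, quantile normalization, each mouse left out, the removal of LowMg-HFD replicate 4 together with a log2 filter of 3, the compared groups alone, no trend and a replicate block. Sequences are from RefSeq. Plots were made in matplotlib 3.10.9 under Python 3.11.15.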

Additional observations from a re-analysis of the deposited data

Results flagged for a closer look

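In 36 sets of values (9 genes in 4 groups), 3 held a mouse whose gap to its nearest neighbour was large for the range of its group. Chance alone gives about 1 in 20 such sets. Cd36 was low in NormMg-LFD replicate 4, at 1540.05 FPKM, and Fabp4 in the same mouse, at 6132.15 FPKM. Cd36 was high in LowMg-LFD replicate 2, at 2278.89 FPKM.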

How the results depend on the processing

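The alternatives were the pseudocount, filter, scaling, trend, block, compared groups and left-out mice. Of the 1251 values of single genes under them, 1188 kept their direction and side of the threshold, 17 lost a call and 40 changed sign. A call was gained by 7, of which 1 also changed sign (Fabp4 by fat at low Mg2+ with quantile normalization). By fat at normal Mg2+ the number of the 9 genes called was 5, and 3 with no filter (beside 15.1% of all genes), 3 with median centring (37.8%) and 3 to 5 with each mouse left out, the 3 without NormMg-LFD replicate 3 (31.4%). By fat at low Mg2+ it was 1, and 2 with quantile normalization (12.9%) and 1 to 2 with each mouse left out, the 2 without LowMg-LFD replicate 3 (15.2%). By low Mg2+ on the HFD it was 1, and 2 with the compared groups alone (18.7%) and 1 to 2 with each mouse left out, the 2 without LowMg-LFD replicate 1 (19.8%) or LowMg-HFD replicate 2 (19.6%). The interaction had 0, and 1 with quantile normalization (4.16%). Signs turned in genes that were not called. With quantile normalization Acsl1 by low Mg2+ on the HFD became 0.029, Cd36 by low Mg2+ on the LFD -0.027, Fabp4 by fat at low Mg2+ 0.50 and by low Mg2+ on the HFD -0.020, and Lpl 0.10 by fat at low Mg2+, 0.18 by fat at normal Mg2+ and -0.10 by low Mg2+ on the LFD. With median centring Cd36 by low Mg2+ on the HFD became 0.011 and Fabp4 by fat at normal Mg2+ -0.062. Under the log2 filter of 3 without LowMg-HFD replicate 4, Cd36 and Vldlr by low Mg2+ on the HFD became 0.031 and -0.023, and Fabp4 by fat at low Mg2+ 0.0077. With each mouse left out, values ran for Acsl1 from -0.26 to 0.16 (interaction), from -0.17 to 0.0027 (low Mg2+ on the HFD) and from -0.25 to 0.16 (low Mg2+ on the LFD), for Cd36 from -0.12 to 0.031 (low Mg2+ on the HFD), for Fabp4 from -0.14 to 0.024 (fat at low Mg2+), from -0.086 to 0.096 (fat at normal Mg2+) and from -0.18 to 0.043 (interaction), for Gpihbp1 from -0.094 to 0.10 (low Mg2+ on the LFD), for Lpl from -0.14 to 0.042 (fat at normal Mg2+) and from -0.078 to 0.11 (low Mg2+ on the LFD), and for Vldlr from -0.075 to 0.13 (low Mg2+ on the HFD). The causes were not tested. With the replicate block the 9 genes had 1, 0, 4, 1 and 0 calls (low Mg2+ on the HFD and LFD, fat at normal and low Mg2+, interaction), Acsl1 and Gpihbp1 by low Mg2+ on the LFD became -0.021 and -0.0094, and the interaction was called in 0 genes. The sample labels give no pairing of mice by replicate number. Deviations of same-numbered mice correlated at -0.18 to 0.34 in 27 pairs, and those of differently numbered mice at -0.27 to 0.20 in 108 pairs. Of 19 mice, 3 correlated best with their own number. Such correlations cannot show whether mice were paired by design. The count of genes called in the interaction, 104, was 24 with a pseudocount of 0.1, 48 with a filter of 1, 2 with no filter, 245 with median centring, 347 with quantile normalization, 67 with no trend and 0 to 482 with each mouse left out. By fat at low Mg2+ it was 1329, and 665 with the compared groups alone and 800 to 1468 with each mouse left out, the 800 without LowMg-HFD replicate 2. By low Mg2+ on the HFD it was 1542, and 921 to 1644, the 921 without NormMg-HFD replicate 3. Depth per gene is unknown, so no counting interval can be given.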
